A study of Mus musculus with 8 samples.

Results

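The cytosolic ribosomal proteins are the protein parts of the machine that translates mRNA in the cytosol, and 76 genes encoding them were followed here in primary mouse lung fibroblasts given TWEAK. Members were the rows of the count table whose symbol was Rpl or Rps with a number and an optional a or x, Rplp0 to Rplp2, or Rpsa, with a mean of at least 10 CPM (counts per 1000000 counts of a library) over the 8 libraries. Of 55335 rows, 76 symbols fitted this pattern and all 76 passed the level, so the level removed none. The nearest members above it were Rpl38, Rps28 and Rps21, at 147, 154 and 174 CPM, and no symbol of the pattern lay below it. Members were thus selected on their symbol and on 1 measured value, the mean level over all libraries, which uses no comparison between groups. Among the 76, 46 belong to the large (60S) subunit and 30 to the small (40S) subunit. The pattern leaves out some genes that also encode parts of the ribosome, and Rps3a1, Fau and Rack1 of these are given separately.

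The cells were wild-type (WT) primary lung fibroblasts of the mouse, kept in DMEM with fetal bovine serum. They were left untreated or were given recombinant TWEAK, a cytokine of the TNF family, at 10, 30 or 100 ng/ml, and RNA was taken after 48 hours. Each of the 4 groups held 2 libraries, and the labels do not say whether these came from separate cultures or animals, so the p-values reflect how far these libraries differ, which could be technical variation alone. Age, sex and strain were not given in the sources used here.

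Each ribosome is built from ribosomal RNA and a near-equal number of copies of each ribosomal protein, and the proteins are made in the cytosol and assembled with the RNA in the nucleolus. Their mRNAs are among the most abundant of growing cells. In mammals most of them start with a C followed by a run of pyrimidines, the 5′ terminal oligopyrimidine (TOP) motif, through which the kinase complex mTORC1 and the RNA-binding protein Larp1 control their translation and stability. Fibroblasts that proliferate or secrete matrix make many ribosomes, and Myc is a known activator of ribosomal protein genes and of the factors that assemble ribosomes.

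The starts of some of the members' genes are shown here, since this motif is read from them. Windows from 10 bases before to 20 bases into the annotated start, 30 bases in all, were read from RefSeq (GRCm38.p6), where 56 of the 76 members had an entry. Capitals mark a run of C followed by at least 4 pyrimidines that begins within 5 bases of the start. The first lines are the members whose difference between 10 ng/ml and untreated cells stayed past the threshold under every alternative tried, and the last 3 are those with the smallest differences at that dose, in both cases among members with an entry.
Rpl18 (chr7:45718061-45718090, plus strand): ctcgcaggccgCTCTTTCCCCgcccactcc
Rps26 (chr10:128626487-128626516, minus strand): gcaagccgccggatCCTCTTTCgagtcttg
Rpl35 (chr2:39005112-39005141, minus strand): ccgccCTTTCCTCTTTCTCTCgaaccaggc
Rps18 (chr17:33955646-33955675, minus strand): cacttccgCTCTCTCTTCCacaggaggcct
Rps9 (chr7:3704031-3704060, plus strand): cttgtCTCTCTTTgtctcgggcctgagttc
Rps24 (chr14:24490668-24490697, plus strand): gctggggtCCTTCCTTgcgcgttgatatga
Rpsa (chr9:120127756-120127785, plus strand): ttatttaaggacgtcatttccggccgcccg
Rpl41 (chr10:128549149-128549178, minus strand): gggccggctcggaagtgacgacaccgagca
Rpl22 (chr4:152325716-152325745, plus strand): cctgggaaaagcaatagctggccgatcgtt
Rpl26 (chr11:68901556-68901585, plus strand): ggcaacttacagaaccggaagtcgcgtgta
Rpl39 (chrX:37085203-37085232, minus strand): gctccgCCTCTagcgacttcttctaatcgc
Such a run was present at the start of 27 of the 56 members (48.2%) and of 21.2% of the 27025 genes in the same table. Rpl18, Rps26, Rpl35, Rps18, Rps9, Rps24 and Rpl39 carry it in these windows, and the windows of Rpsa, Rpl41, Rpl22 and Rpl26 do not. A window without the run says only that these letters do not stand near this annotated start.

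Library totals ranged from 37345575 to 50896445 counts, and the lowest count of any member in any library was 5646. Levels below are CPM scaled by TMM, a correction for library composition, and differences are log2 changes ± standard error (SE) from edgeR's quasi-likelihood fit of all 8 libraries, in which a gene is called when its p adjusted over all 17360 tested genes is under 0.05. The 10 fibroblast markers examined, led by Fn1, were all above 1 CPM in every group, and Epcam, Nkx2-1, Cd3e and 4 haemoglobin genes were at 0 in all libraries. The fibroblast markers summed to 32032 to 33130 CPM in untreated cells, 17578 to 18184 CPM at 10 ng/ml, 18801 to 21695 CPM at 30 ng/ml and 30705 to 30815 CPM at 100 ng/ml. Macrophage and leukocyte markers, led by Cd14, summed to 28.9 to 32.7 CPM, 62.4 to 72.2 CPM, 54.1 to 66.8 CPM and 46.9 to 49.3 CPM in the same order, without TMM scaling. Cd14 alone had means of 17.6, 41.8, 36.1 and 22.0 CPM, and 3 or 4 of these 8 markers were above 1 CPM in each group. Marco was at 0 in both untreated libraries, Ptprc in both at 10 ng/ml and Itgam in both at 30 ng/ml. Mesothelial markers summed to 16.8 to 17.1 CPM, 5.59 to 7.59 CPM, 5.72 to 6.16 CPM and 11.4 to 14.5 CPM in the same order. The sums of every marker list are without TMM scaling. Epithelial markers summed to at most 2.95 CPM, endothelial to 10.1 CPM and lymphocyte to 0.687 CPM. The part of any of these in the values of the ribosomal protein genes was not tested, and in such bulk samples fewer cells of a type and less RNA per cell cannot be told apart.

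The 76 genes together took a larger share of the counts at 10 and 30 ng/ml than in untreated cells. The share was 3.45% and 3.60% in the untreated libraries, 4.48% and 4.20% at 10 ng/ml, 4.21% and 4.32% at 30 ng/ml, and 3.77% and 3.95% at 100 ng/ml. All 4 libraries at 10 and 30 ng/ml lay above both libraries at 100 ng/ml, and these in turn lay above both untreated libraries. The group means were 3.53% ± 0.105, 4.34% ± 0.199, 4.26% ± 0.0774 and 3.86% ± 0.122 (SD, n = 2). Both subunits followed the same order. The 60S genes took 2.18%, 2.65%, 2.61% and 2.39% of the counts on average and the 40S genes 1.35%, 1.69%, 1.65% and 1.47%. A share depends on the other genes of a library too. The 50 most abundant genes held 15.9% of the counts in untreated cells, 14.4% at 10 ng/ml, 14.5% at 30 ng/ml and 15.5% at 100 ng/ml. With TMM factors computed from the other genes alone, 48, 38 and 1 of the members' calls against untreated cells at 10, 30 and 100 ng/ml were kept.

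**Figure D1:**
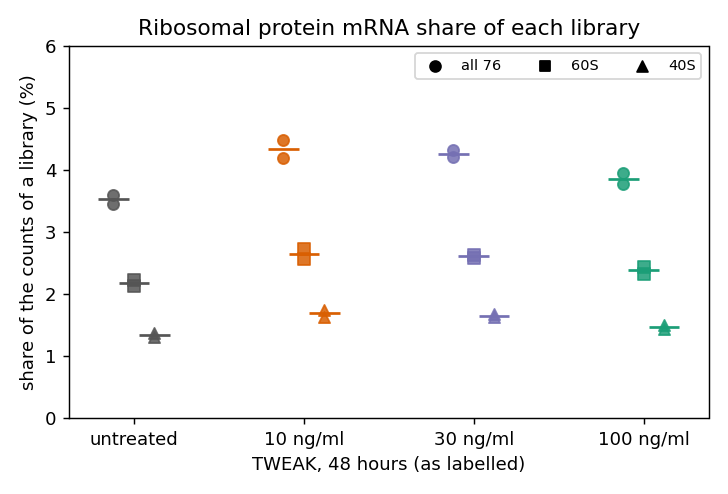
Share of the counts of each library taken by the 76 ribosomal protein genes (circles), the 46 of the 60S subunit (squares) and the 30 of the 40S subunit (triangles), in percent, by TWEAK dose; points are libraries and lines are means of 2. The 4 libraries at 10 and 30 ng/ml sit between 4.20% and 4.48%, above those at 100 ng/ml (3.77% and 3.95%) and the untreated ones (3.45% and 3.60%).

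The levels of the members shifted together from library to library. The median member lay at -0.21 and -0.11 from its own mean over the 8 libraries, on the log2 scale, in untreated replicates 1 and 2. It lay at 0.16 and 0.07 in the 10 ng/ml libraries and at 0.06 and 0.12 in those at 30 ng/ml. The 100 ng/ml libraries lay between, at -0.10 and -0.0012. The pooled SD of these medians between replicates was 0.061. Untreated replicate 1 was the lowest library for 54 of the 76 members, and 10 ng/ml replicate 1 was the highest for 41.

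**Figure D2:**
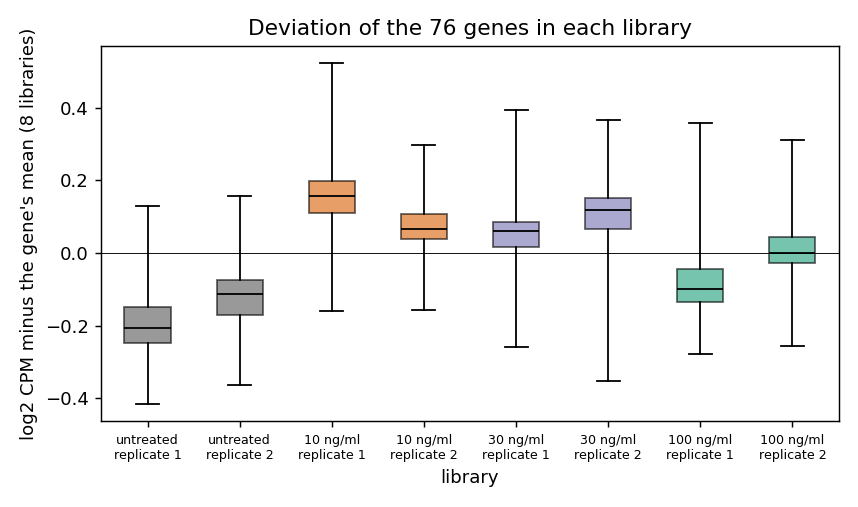
Deviation of each of the 76 genes from its mean over the 8 libraries, as log2 CPM, in each library; boxes span the middle of the genes, the line is the median and whiskers reach the lowest and highest gene. The medians run from -0.21 and -0.11 in the untreated libraries to 0.16 and 0.07 at 10 ng/ml, with the 100 ng/ml libraries at -0.10 and -0.0012.

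At 10 ng/ml, 48 of the 76 members were called higher than in untreated cells and none was called lower, where 15.0% of all tested genes were called higher and 14.2% lower. The median change was 0.27, or 1.21-fold, against 0.0063 over all tested genes, and the fitted change was above 0 for all 76. Both libraries at 10 ng/ml lay above both untreated libraries for 70 members, and the same held for 33.1% of all tested genes. The count of members fell when 1 of the libraries compared was left out, in fits whose share of all genes called is not reported here. Without untreated replicate 1 it was 10, without 10 ng/ml replicate 1 it was 14, and without either of the other two libraries compared it was 36 and 39. Rpl18, Rpl3, Rpl35, Rpl41, Rps18, Rps24, Rps26, Rps9 and Rpsa were among those that stayed called whichever library was left out. The median of the 76 ran from 0.20 to 0.32 over the same omissions.

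Rps26, a 40S protein at the channel through which mRNA leaves the ribosome, had the largest change at this dose. It stood at 302 and 292 CPM in untreated cells, 454 and 405 CPM at 10 ng/ml, 392 and 381 CPM at 30 ng/ml, and 308 and 343 CPM at 100 ng/ml. Every library at 10 ng/ml was above every library of the other groups, and both at 100 ng/ml were just above the untreated ones. The change at 10 ng/ml was 0.53 ± 0.08 (SE), with an adjusted p of 0.00143. Rpl18, a protein of the 60S surface, stood at 248 and 242 CPM in untreated cells, 374 and 333 CPM at 10 ng/ml, 326 and 349 CPM at 30 ng/ml, and 315 and 336 CPM at 100 ng/ml. All 6 TWEAK libraries were above the untreated pair and the doses overlapped each other. Its change at 10 ng/ml was 0.53 ± 0.07 (SE), with an adjusted p of 0.00125.

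Rpl3, which reaches from the surface of the large subunit towards its peptidyl transferase centre, was more abundant. Its libraries read 635 and 674 CPM in untreated cells, 943 and 884 CPM at 10 ng/ml, 889 and 871 CPM at 30 ng/ml, and 686 and 752 CPM at 100 ng/ml. The 10 and 30 ng/ml libraries overlapped, and both groups lay above all other libraries. The change was 0.48 ± 0.06 (SE) at 10 ng/ml and 0.43 ± 0.06 (SE) at 30 ng/ml, with adjusted p of 0.000885 and 0.00208. Rows named as pseudogenes of Rpl3 held counts equal to 21.6% of its own, so its reads may be split. Rps25, a 40S head protein that some viral RNAs need to start translation, rose by 0.48 ± 0.13 (SE) at 10 ng/ml, with an adjusted p of 0.0249, which rose above the threshold whichever of the 4 libraries compared was left out.

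The members with the smallest change at 10 ng/ml were Rpl22, Rpl26, Rpl21 and Rpl39, with 0.01, 0.05, 0.10 and 0.10 on the log2 scale, and none was called. The 28 members not called at this dose reached up to 0.36, the value of Rps29. Rpl22, a 60S protein with a known part in lymphocyte development, stood at 199.6 and 191 CPM in untreated cells, 181 and 213 CPM at 10 ng/ml, 169 and 251 CPM at 30 ng/ml, and 240.2 and 189 CPM at 100 ng/ml. Its groups overlapped throughout, and the 95% interval of its change at 10 ng/ml ran from -0.42 to 0.45, which includes the median change of the members. Rpl26, which lies at the rim of the exit tunnel, had an interval of -0.32 to 0.42, equally wide enough to hold that median. The spread of the 76 changes at this dose was 0.10 (SD), and the median SE of a single change was 0.07.

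At 30 ng/ml, 38 of the 76 members were called higher and none lower, beside 12.6% of all tested genes called higher and 10.7% lower. The median change was 0.24, or 1.18-fold, against 0.0059 over all genes, and it was above 0 for 75 members. Groups did not overlap, with 30 ng/ml above, for 68 members and 32.4% of all genes. Here too the count of members fell with 1 library left out, again without a share of all genes beside it. It was 5 without untreated replicate 1, 18 without untreated replicate 2, 24 without 30 ng/ml replicate 1 and 9 without 30 ng/ml replicate 2. Rpl18, Rpl3 and Rps18 kept their call under all of these. The comparison shares its untreated libraries with the one at 10 ng/ml.

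Rps18, a 40S head protein near the bridge to the large subunit, had 462 and 497 CPM in untreated cells, 656 and 602 CPM at 10 ng/ml, 646 and 673 CPM at 30 ng/ml, and 527 and 572 CPM at 100 ng/ml. The libraries at 10 and 30 ng/ml overlapped and all 4 were above those of the other groups. Its change at 30 ng/ml was 0.46 ± 0.07 (SE), with an adjusted p of 0.00238. Among the 5 largest at this dose were also Rpl18 at 0.46, Rpl11 at 0.45 and Rpl3 at 0.43. Of these Rpl11 was not called. The smallest were Rpl10a at -0.09, Rps27 at 0.01, Rpl26 at 0.04, Rpl22 at 0.11 and Rpl37a at 0.11, none of them called.

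At 100 ng/ml, Rpl41 was the only member called against untreated cells, beside 0.812% of all genes called higher and 0.305% lower. The median change of the members was 0.12, or 1.09-fold, against 0.0019 over all genes. It was above 0 for 68 members, and both libraries at 100 ng/ml lay above both untreated ones for 46 members and for 21.9% of all genes. At an unadjusted p under 0.05 the number of members was 15, beside 2017 of the 17360 tested genes. DESeq2 called 4 members and 592 of all genes. The count of members with limma-voom was 2, and its count over all genes is not reported here. A member not called here may still differ. The median SE of the members was 0.0744 here and 0.0745 at 10 ng/ml, so the intervals were about equally wide. The p is adjusted over all tested genes, so a change of similar size and SE can be called at another dose only. Counts of calls at different doses therefore do not by themselves compare the sizes of the changes. For Rpl18 the change was 0.41 ± 0.07 (SE) with an adjusted p of 0.0546, and for Rps25, the second largest, it was 0.50 ± 0.13 (SE) with an adjusted p of 0.149. Rps25 read 309.8 and 230.4 CPM in the 100 ng/ml libraries, so that replicate 1 alone was above all libraries of the other groups. The next were Rpl11 at 0.35 and Rps20 at 0.34. Among the lowest were Rpl10a at -0.04, Rpl15 at -0.03, Rpl6 at -0.02 and Rps29 at -0.02.

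Rpl41 had the largest change of any member at 100 ng/ml. It encodes a very short, strongly basic peptide of the 60S subunit, and its gene lies at chr10:128548114-128549305 on the minus strand (mm10), with no overlapping exon of another gene and no named pseudogene row. It had 139 and 143 CPM in untreated cells, 199.7 and 181 CPM at 10 ng/ml, 172 and 174 CPM at 30 ng/ml, and 226 and 219 CPM at 100 ng/ml. The 4 groups did not overlap, and 100 ng/ml was the highest, followed by 10 and then 30 ng/ml. Its change against untreated cells was 0.44 ± 0.07 (SE) at 10 ng/ml, 0.30 ± 0.07 (SE) at 30 ng/ml and 0.66 ± 0.07 (SE) at 100 ng/ml, with adjusted p of 0.00213, 0.0162 and 0.00485. The value at 100 ng/ml was 1.58-fold and stayed called in every alternative, as did that at 10 ng/ml, while that at 30 ng/ml was lost without any 1 of the 4 libraries compared. Directly compared, 100 ng/ml was above 10 ng/ml by 0.23 ± 0.07 (SE), with an adjusted p of 0.0496, which rose above the threshold when any of 7 of the 8 libraries was left out. It was above 30 ng/ml by 0.36 ± 0.07 (SE), with an adjusted p of 0.00981, which rose above the threshold when replicate 1 of either of these groups was left out.

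The remaining members were on the whole lower at 100 ng/ml than at 10 and 30 ng/ml. Against 10 ng/ml, 11 were called lower and 1, Rpl41, higher, where 11.2% of all genes were called lower and 10.7% higher. The median was -0.17, and 53 members lay lower without overlap, beside 30.8% of all genes. In either direction 15.8% of the members were called, against 22.0% of all genes. The 11 included Rpl3, Rpl32, Rpl35, Rpl4, Rpl5, Rps2, Rps24, Rps26, Rps6 and Rpsa, with Rps26 at -0.40 ± 0.08 (SE, adjusted p 0.00811) and Rpl3 at -0.35 ± 0.06 (SE, adjusted p 0.00654) the strongest. Rps29 had a change of -0.38 and was not called, and after Rpl41 the highest values were those of Rpl22 and Rpl39, at 0.12 and 0.12, also not called. The count of members called in either direction was 2 without 10 ng/ml replicate 1 and 1 without 100 ng/ml replicate 1, and Rpl3 kept its call throughout. It was 7 without either untreated library and 6 without either 30 ng/ml library, which enter only through the shared spread.

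Against 30 ng/ml, 3 members were called lower at 100 ng/ml, namely Rpl3, Rps18 and Rpsa, and Rpl41 was called higher. Of all genes 8.04% were called lower and 7.15% higher, 15.2% together. The median was -0.14, and 52 members were lower without overlap against 29.5% of all genes. Without replicate 1 of the 30 ng/ml or of the 100 ng/ml group no member was called, without 30 ng/ml replicate 2 the count was 1, and without either untreated library it was 2. Between 30 and 10 ng/ml no member was called, and none had an unadjusted p under 0.05. Over all genes edgeR called 0 here (0.0%), 1208 had an unadjusted p under 0.05 and DESeq2 called 127, of which 0 were members. The median difference was -0.03, from -0.33 for Rpl10a to 0.15 for Rpl11.

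Ordered by group mean, the untreated group was the lowest for 68 members and the 100 ng/ml group for 7. The 10 ng/ml group was the highest for 50 members, the 30 ng/ml group for 20 and the 100 ng/ml group for 6. The order untreated, 100, 30 and 10 ng/ml from low to high was found for 42 of the 76 members. The columns of the count table are numbered in this same order, which runs against the labelled dose among the treated groups. Calls over all tested genes also fell with labelled dose, with 15.0%, 12.6% and 0.812% called higher at 10, 30 and 100 ng/ml. The order is thus not particular to the members, and its cause was not tested. The neighbours 10 and 30 ng/ml did not differ for any member in the test.

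**Figure D3:**
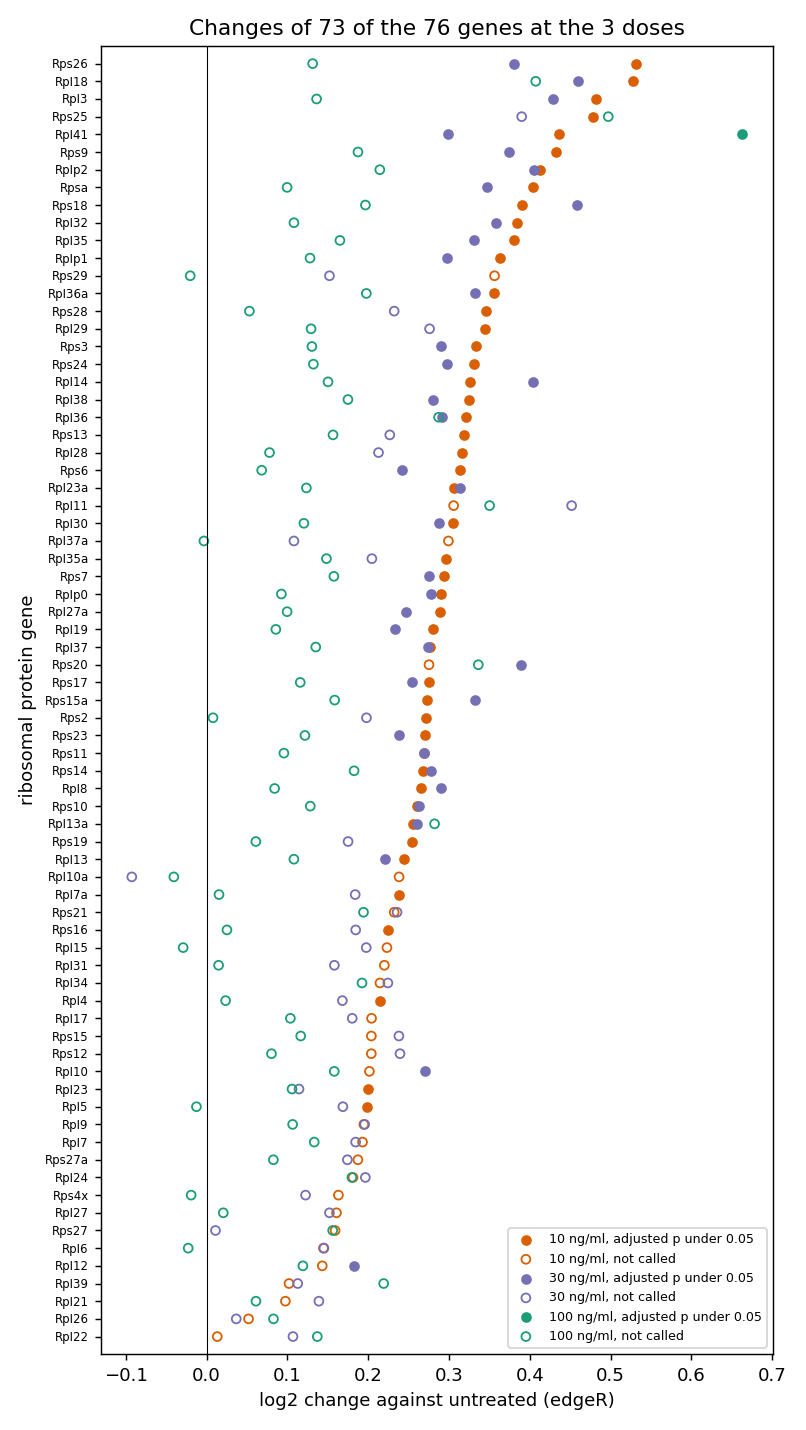
Log2 change of 73 of the 76 genes against untreated cells at 10, 30 and 100 ng/ml TWEAK, sorted by the change at 10 ng/ml; filled points have an adjusted p under 0.05 in edgeR and open points do not. Points at 10 ng/ml run from 0.01 (Rpl22) to 0.53 (Rps26), and Rpl41 at 0.66 is the only filled point at 100 ng/ml.

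**Figure D4:**
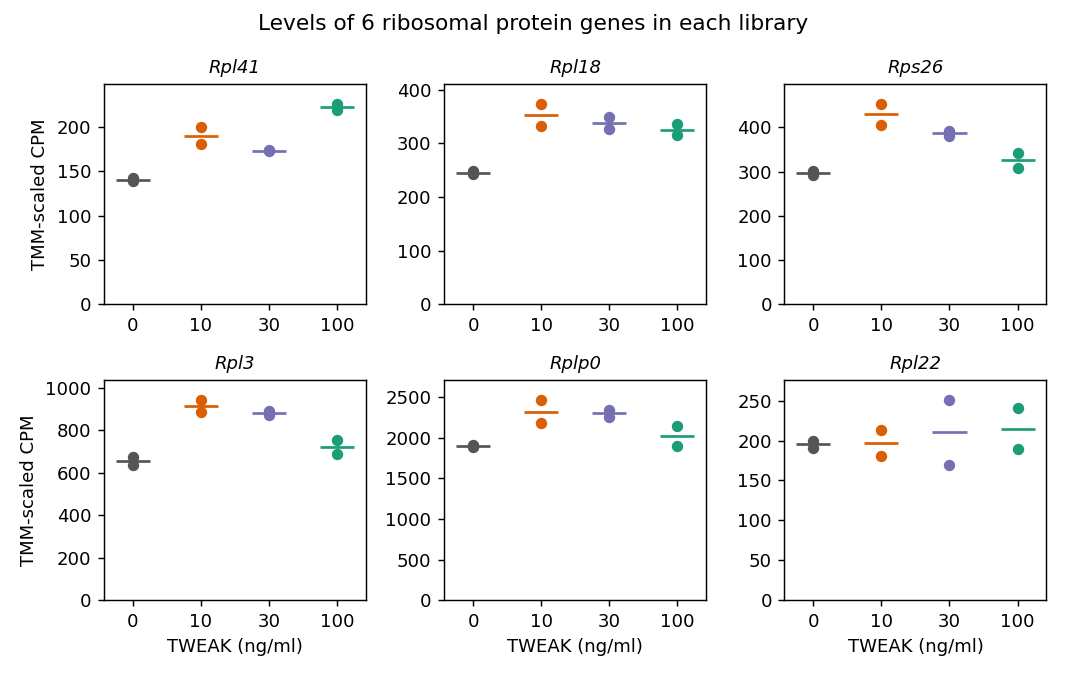
TMM-scaled CPM of Rpl41, Rpl18, Rps26, Rpl3, Rplp0 and Rpl22 in each library by TWEAK dose; points are libraries, lines are means of 2, and each axis starts at 0. Rpl41 is highest at 100 ng/ml (226 and 219 CPM), Rps26 and Rpl3 at 10 ng/ml, and the groups of Rpl22 overlap.

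The counts and medians of both subunits lay close together, with no test of the difference between them made. At 10 ng/ml 27 of 46 genes of the 60S subunit and 21 of 30 of the 40S subunit were called higher, with median changes of 0.26 and 0.27. At 30 ng/ml the numbers were 22 and 16, with medians of 0.22 and 0.25, and at 100 ng/ml they were 1 and 0, with medians of 0.12 and 0.12. The shares of all tested genes called higher were 15.0%, 12.6% and 0.812% at 10, 30 and 100 ng/ml.

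The P stalk, the flexible arm of the 60S subunit that recruits elongation factors, consists of Rplp0 with the dimers of Rplp1 and Rplp2, on a base shared with Rpl12. Of these 4, 3 were called higher at 10 ng/ml, 4 at 30 ng/ml and 0 at 100 ng/ml, where the shares of all tested genes were 15.0%, 12.6% and 0.812%. Rplp0 had 1909.7 and 1886 CPM in untreated cells, 2467 and 2176 CPM at 10 ng/ml, 2260.0 and 2342 CPM at 30 ng/ml, and 1902 and 2145 CPM at 100 ng/ml. Its libraries at 10 and 30 ng/ml were all above the untreated pair, and those at 100 ng/ml overlapped it. The change was 0.29 ± 0.07 (SE) at 10 ng/ml, with an adjusted p of 0.0206. Rplp1 and Rplp2 changed by 0.36 and 0.41 at 10 ng/ml and by 0.30 and 0.40 at 30 ng/ml. Rpl12 was called at 30 ng/ml alone, with 0.18 ± 0.05 (SE) and an adjusted p of 0.0468, and had 0.14 ± 0.05 (SE) at 10 ng/ml with an adjusted p of 0.0883. None of these calls stayed without untreated replicate 1.

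Rpl5 and Rpl11 carry the 5S ribosomal RNA into the large subunit and, when free, bind Mdm2, the ubiquitin ligase that limits p53. Rpl5 had 546 and 594 CPM in untreated cells, 658 and 650.1 CPM at 10 ng/ml, 646 and 635 CPM at 30 ng/ml, and 553 and 577 CPM at 100 ng/ml. Its 10 and 30 ng/ml libraries were above the rest, and the 100 ng/ml libraries overlapped the untreated ones. The change was 0.20 ± 0.06 (SE) at 10 ng/ml, with an adjusted p of 0.0317, and it was lower by -0.21 ± 0.06 (SE) at 100 than at 10 ng/ml, with an adjusted p of 0.0319. The call at 10 ng/ml was lost in 5 alternatives, among them without untreated replicate 1 and without either 10 ng/ml library, and that between 100 and 10 ng/ml in 6, among them without any 1 of the 4 libraries compared and with the replicate block. Rpl11 was less even between replicates, with 231 and 254 CPM in untreated cells, 308 and 292 CPM at 10 ng/ml, 287 and 376 CPM at 30 ng/ml, and 256 and 362 CPM at 100 ng/ml. Replicate 2 at 30 and at 100 ng/ml stood well above replicate 1, and it was not called at any dose, with an interval of -0.10 to 0.71 at 10 ng/ml.

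Of the 11 proteins at the rim of the tunnel through which the new chain leaves the ribosome, 5 were called higher at 10 ng/ml, 4 at 30 ng/ml and 0 at 100 ng/ml, with a median of 0.21 at 10 ng/ml. Of 14 proteins of the 40S head and beak the numbers were 9, 6 and 0, with a median of 0.28, and of 16 proteins of the 40S body and platform 12, 10 and 0, with a median of 0.27. Of 18 members whose human counterparts are mutated in Diamond-Blackfan anaemia, an inherited failure of red cell production, 11, 7 and 0 were called higher. Of all tested genes 15.0%, 12.6% and 0.812% were called higher at 10, 30 and 100 ng/ml, and these lists overlap. Rps19, the counterpart of the gene most often mutated in that disease in humans, changed by 0.25 ± 0.08 (SE) at 10 ng/ml, with an adjusted p of 0.0416, which was above the threshold without untreated replicate 1, among other alternatives.

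Of 10 members known for roles outside the ribosome, 6 were called higher at 10 ng/ml, 4 at 30 ng/ml and 0 at 100 ng/ml, beside 15.0%, 12.6% and 0.812% of all tested genes. Rpsa, also known as a laminin receptor, had 1135 and 1158 CPM in untreated cells, 1593 and 1443 CPM at 10 ng/ml, 1477 and 1440.0 CPM at 30 ng/ml, and 1163 and 1295 CPM at 100 ng/ml, with the 10 and 30 ng/ml libraries above all others and 100 ng/ml just above the untreated pair. Its change was 0.40 ± 0.07 (SE) at 10 ng/ml, with an adjusted p of 0.00277. Rps6, the substrate of the S6 kinases downstream of mTORC1, changed by 0.31 at 10 ng/ml and 0.24 at 30 ng/ml, and was called at both. Rps3, which in human cells also binds the p65 subunit of NF-kappaB, changed by 0.33 and 0.29 and was called at both. Rpl13a, part of a complex that silences inflammatory mRNAs in human monocytes, had 1053 and 1028 CPM in untreated cells, 1291 and 1193 CPM at 10 ng/ml, 1207 and 1286 CPM at 30 ng/ml, and 1311 and 1219 CPM at 100 ng/ml. All 6 TWEAK libraries were above the untreated ones. Its changes were 0.26 ± 0.06 (SE), 0.26 ± 0.06 (SE) and 0.28 ± 0.06 (SE) from the lowest to the highest dose, and adjusted p were 0.015, 0.017 and 0.0892. Rpl23, an Mdm2-binding protein, was called at 10 ng/ml alone, with 0.20, and Rps27a, made as a fusion to ubiquitin, was not called, with 0.19 and an adjusted p of 0.0536. Without untreated replicate 1 all of these but the call of Rpsa were above the threshold at 10 ng/ml.

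Levels of different members can be compared only per length. As CPM per kilobase of the main annotated transcript (GENCODE, mm10), over all libraries, members ran from 109 to 1589 with a median of 606. The highest were Rplp1 at 1589, Rplp0 at 1573, Rps15 at 1310, Rpl23a at 1285 and Rpl13a at 1145. The lowest were Rps20 at 109, Rpl37 at 269, Rpl5 at 297, Rpl27a at 322 and Rps16 at 331. The transcript length used for Rps20 was 3706 bases, the longest of the 76, against a median of 705, so its place at the bottom depends on that annotation. The lengths used for Rpl37, Rpl5, Rpl27a and Rps16 were 835, 2045, 1158 and 1109 bases. These too lie above the median, so their places also depend on the transcript chosen. Differences did not follow the level closely. Across the 76 genes, which share the same libraries, the correlation of the log2 change with the log2 level was r = -0.10 at 10 ng/ml, 0.0076 at 30 ng/ml and -0.31 at 100 ng/ml. With GC content of the transcript it was 0.23, 0.12 and 0.03.

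A few members differed between replicates by more than between groups. Rpl10a had 330.5 and 355 CPM in untreated cells, 498 and 311 CPM at 10 ng/ml, 333 and 309.8 CPM at 30 ng/ml, and 317 and 349.6 CPM at 100 ng/ml, so that a single library at 10 ng/ml stood above all others, and rows named as its pseudogenes held counts equal to 27.0% of its own. Rpl22, Rpl11 and Rpl26 had SE of 0.19, 0.17 and 0.16 at that dose. None of these 4 was called in any comparison.

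Ribosomal protein genes are copied throughout the genome as processed pseudogenes, and many carry small nucleolar RNAs (snoRNAs) in their introns. The table held 273 rows named as pseudogenes of members, belonging to 58 of the 76, and they took 0.233% to 0.309% of the counts of a library. For 14 members these rows held counts equal to over 20% of the gene's own, up to 80.1% for Rpl31, and how reads were shared between copies is not given in the sources used here. Of the 103 such rows that could be tested, 14 were called higher at 10 ng/ml (13.6%, beside 15.0% of all tested genes), 8 at 30 ng/ml (7.77%, beside 12.6%) and 0 at 100 ng/ml (beside 0.812%), with medians of 0.31, 0.21 and 0.07. The shares called at 10 and 30 ng/ml were thus no higher than over all genes. The median SE of these rows at 10 ng/ml was 0.17, against 0.07 for the members. Both libraries at 10 ng/ml lay above both untreated ones for 78 of the 103 rows and below for 0. At 30 ng/ml these numbers were 55 and 3. Of all tested genes 33.1% and 32.4% lay above in this way at 10 and 30 ng/ml. Among the 46 members with under 5% in such rows, a set chosen after the data were seen, the medians were 0.28, 0.26 and 0.12 at 10, 30 and 100 ng/ml. Exons of 37 members overlap another annotated gene, and without knowledge of strand in the counting such reads could be credited to either. The median change at 10 ng/ml was 0.27 both for these 37 and for the other 39. Genes with snoRNAs inside numbered 29, holding 56 snoRNAs, with a median of 0.25, and the remaining 47 had a median of 0.29.

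Members with a pyrimidine run at the start, such as Rpl18 and Rps26 above, had a median change of 0.28 at 10 ng/ml with 20 of 27 called higher, and those with a start but no run in the window had a median of 0.24 with 16 of 29 called. At 30 ng/ml 17 of 27 and 9 of 29 were called, with medians of 0.24 and 0.22. The shares of all tested genes called higher were 15.0% at 10 ng/ml and 12.6% at 30 ng/ml. The difference between these sets was not tested. In the wider promoter window, 250 bases before to 50 after the start and on both strands, CCGGAAG, a core bound by ETS-family factors, was found in 41.1% of the 56 members and 9.93% of all genes. GGGCGG, the core of Sp1 sites, was found in 60.7% and 38.2%, and TTCCGCC, which can share bases with GGGCGG on the other strand, in 21.4% and 5.67%. CACGTG, the E-box to which Myc binds, was found in 10.7% and 8.09%, and TATAAA in 10.7% and 15.7%. Median changes at 10 ng/ml were 0.29 for the 23 members with CCGGAAG and 0.24 for the 33 without.

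Rps3a1, Fau and Rack1, which lie outside the symbol pattern, had changes at 10 ng/ml within the range of the members. Fau, a ubiquitin-like fusion to a 40S protein, changed by 0.26 ± 0.07 (SE) at this dose, with an adjusted p of 0.0291. Rps3a1 and Rack1, a 40S protein and the 40S scaffold protein, had 0.16 and 0.25 and were not called. The call of Fau was lost in 5 alternatives, which were without either untreated library, without 10 ng/ml replicate 1, with no low-count filter and with only the groups compared. Of 6 paralogs tested, 3 were called higher at 10 ng/ml and 2 at 30 ng/ml, beside 15.0% and 12.6% of all tested genes. Rps27l, a p53-inducible relative of Rps27, had 79.8 and 84.6 CPM in untreated cells and 116 and 112 CPM at 10 ng/ml, with a change of 0.47 ± 0.07 (SE) and an adjusted p of 0.00137. Its parent Rps27 changed by 0.16 ± 0.09 (SE) and was not called. Rpl36al changed by 0.41 and Rpl22l1 by 0.46, both called, and the call of Rpl22l1 was lost in 6 alternatives, among them without untreated replicate 1 and without 10 ng/ml replicate 2. The fourth in order of p, Rpl7l1, had 0.19 and was not called.

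Other mRNAs of the TOP class gave mixed results. Of 20 such genes, which encode elongation and initiation factors and related proteins, 9 were called higher at 10 ng/ml, 8 at 30 ng/ml and 0 at 100 ng/ml, with medians of 0.23, 0.17 and 0.01. Of all tested genes 15.0%, 12.6% and 0.812% were called higher at these doses. Pabpc1, the poly(A)-binding protein, rose from 879 and 879.6 CPM to 1581 and 1518 CPM, a change of 0.82 ± 0.05 (SE) with an adjusted p of 1.43e-05. Hnrnpa1 rose by 0.67, Npm1 by 0.51 and Eef1b2 by 0.49. Eef1a1, Eef2 and Tpt1, picked here after their values were seen, are classical TOP mRNAs and had 0.13 ± 0.06, 0.09 ± 0.06 and 0.03 ± 0.04 (SE), with none of them called.

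Genes whose products assemble ribosomes had larger median changes than the ribosomal protein genes at 10 and 30 ng/ml, a difference that was not tested. At 100 ng/ml their median was the smaller, 0.05 against 0.12 for the 76 members. Of 50 ribosome assembly and RNA polymerase I genes, 39 were called higher and 1 lower at 10 ng/ml, 34 and 1 at 30 ng/ml and 0 at 100 ng/ml, with medians of 0.53, 0.47 and 0.05. Of all tested genes 15.0% were called higher and 14.2% lower at 10 ng/ml, 12.6% and 10.7% at 30 ng/ml, and 0.812% and 0.305% at 100 ng/ml. Mybbp1a, a nucleolar protein, rose by 0.77 ± 0.06 (SE) at 10 ng/ml, with an adjusted p of 6.62e-05. Nhp2, of the box H/ACA snoRNA particles, had 16.8 and 20.5 CPM in untreated cells and 42.3 and 43 CPM at 10 ng/ml, and Eif6, which keeps new 60S subunits from joining early, had 63.3 and 63.1 CPM and 159.8 and 126 CPM. Of 13 non-coding and other snoRNA host genes tested, 7 were called higher at 10 and at 30 ng/ml and 0 at 100 ng/ml, or 53.8% at both lower doses against the same 15.0% and 12.6% of all genes. Snhg8, Snhg1, Snhg17 and Zfas1 rose by 1.24, 0.80, 0.65 and 0.59 at 10 ng/ml. Their levels were low, with Snhg8 at 9.15 and 12.8 CPM in untreated cells.

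Regulators of ribosomal protein synthesis were called at shares near those of all genes. Of 20 genes of the mTORC1 pathway and of TOP and Myc control, 4 were called higher and 2 lower at 10 ng/ml, beside 15.0% and 14.2% of all tested genes, and the median was -0.03. Myc had 11.1 and 10.6 CPM in untreated cells, 44.1 and 46.7 CPM at 10 ng/ml, 45.5 and 33.7 CPM at 30 ng/ml, and 13.1 and 15.4 CPM at 100 ng/ml. Both libraries at 10 and at 30 ng/ml lay far above all others. Its change was 2.06 ± 0.16 (SE) at 10 ng/ml, with an adjusted p of 4.89e-05, and 0.39 ± 0.15 (SE) at 100 ng/ml, with an adjusted p of 0.375. Rps6kb1, which encodes an S6 kinase, fell by 0.48 ± 0.07 (SE), with an adjusted p of 0.00143. Eif4ebp1, a translation repressor inactivated by mTORC1, rose by 0.32, and Deptor, an inhibitor of mTOR, fell by 0.68. The call of Eif4ebp1 was lost without untreated replicate 2 or 10 ng/ml replicate 1, and that of Deptor without any 1 of the 4 libraries compared. Of 8 genes of the p53 branch that free ribosomal proteins act on, 5 were called higher and 1 lower at 10 and at 30 ng/ml, where 15.0% and 12.6% of all genes were called higher. Mdm2 had 113 and 111 CPM in untreated cells and 247 and 269.6 CPM at 10 ng/ml, a change of 1.20 ± 0.07 (SE) with an adjusted p of 1.38e-05. Trp53, Sesn2 and Cdkn2a rose by 0.90, 0.64 and 2.28. At 100 ng/ml Cdkn2a was the only one of the 8 called, with 0.90 ± 0.14 (SE) and an adjusted p of 0.0317, a call lost when any of 6 single libraries was left out.

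The proteins of the mitochondrial ribosome, which are encoded in the nucleus and translate the mitochondrial genome, are a separate family. Of 78 such genes 12 were called higher and 1 lower at 10 ng/ml, a share of 15.4% beside the 15.0% of all tested genes, and 9 were called higher at 30 ng/ml (11.5% beside 12.6%). Their medians were 0.17, 0.11 and 0.03 from the lowest to the highest dose, beside 0.27, 0.24 and 0.12 for the cytosolic members. Both libraries at 10 ng/ml lay above both untreated ones for 43 of the 78 and below for 2. At 30 ng/ml these numbers were 44 and 7. Of all tested genes 33.1% and 32.4% lay above in this way. The median SE at 10 ng/ml was 0.11 for the 78 genes and 0.07 for the cytosolic members. The comparison is of counts and medians, and no test of the difference between the families was made.

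**Figure D5:**
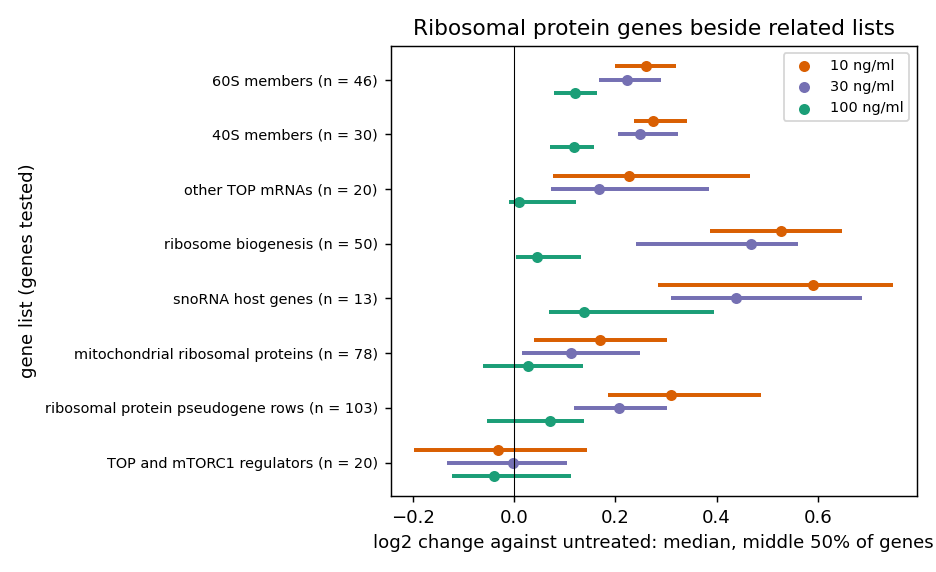
Median log2 change against untreated cells (points) and the range of the middle of the genes (lines) at 10, 30 and 100 ng/ml TWEAK for the 60S and 40S ribosomal protein genes and related lists, with the number of genes tested in each. The medians of the 60S and 40S genes at 10 ng/ml are 0.26 and 0.27, those of ribosome biogenesis genes 0.53, and those of mitochondrial ribosomal proteins 0.17.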

How the data were processed

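Gene expression was measured in 8 libraries of primary mouse lung fibroblasts, 2 per group, and each library's group and number come from its title. The table the authors deposited holds raw counts of reads per gene, not normalized. The submitters' processing notes name the genome build mm10 and the tools STAR and StringTie, without versions or roles. How reads were counted, with which annotation and whether by strand, is not given in the sources used here.

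Rows without a symbol (3225, holding 0.168% to 0.178% of the counts of a library) were left out of library sizes and tests. Symbols on more than 1 row numbered 80, and 26 symbols had been turned into dates. None of these is named. Tests were made in R 4.3.3 with edgeR 4.0.16 (quasi-likelihood) on the 17360 genes that passed filterByExpr by group, with TMM scaling and a mean per group, 4 residual and 3.77 prior degrees of freedom. It gave 6 contrasts with two-sided p-values, adjusted by Benjamini-Hochberg at 0.05. The SE is the size of the change over the root of F. Intervals of 95% use a t quantile of 2.32. The scripts were tested on simulated counts. Alternatives were DESeq2 1.42.0, limma-voom (limma 3.58.1), other scalings and filters, fits of only the groups compared, a block for the replicate number, and each library left out in turn.

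The members, gene lists, comparisons and tests were chosen with earlier results of these data known. Genes were named by rule. For each contrast these were the members with the 5 largest and 5 smallest changes against untreated cells, or 3 and 3 between doses. The P stalk, 5S and extra-ribosomal lists, the 5 highest and 5 lowest per length, the 3 members nearest the level threshold and the 4 genes of lowest p in each other list were also named. A few genes that this rule picks are not reported here. Transcript lengths come from GENCODE on mm10 and start sequences from RefSeq on GRCm38.p6, which matched 56 of the 76 members. Within groups, replicates differed by more than counting noise (chi-square per degree of freedom 22.7 to 27.6), so no library was taken for a copy. Library totals of 37345575 to 50896445 counts make the spread between libraries, not counting, the limit of precision.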

Additional observations from a re-analysis of the deposited data

How the results depend on the processing

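All medians against untreated cells and between 100 ng/ml and the other doses kept their sign under every alternative. No named change that was called in any setting reversed. The count of members called at 10 ng/ml (48) ran from 10 to 46 with 1 library left out, and its median from 0.20 to 0.32. The count at 30 ng/ml (38) was 25 with no low-count filter and ran from 5 to 38 with 1 library left out. At 100 ng/ml the count (1) was 4 with DESeq2, 2 with limma-voom, 2 with library totals in place of TMM, 2 with genes of at least 1 CPM, and 1 to 2 with 1 library left out. Between 100 and 10 ng/ml the count (12) was 4 with no low-count filter, 6 with only the groups compared, and 1 to 14 with 1 library left out. Between 100 and 30 ng/ml the count (4) was 8 with DESeq2, 2 with no low-count filter, and 0 to 5 with 1 library left out. The median between 30 and 10 ng/ml ran from -0.07 to 0.01 with 1 library left out. The cause of these moves was not tested, and the shares of all genes called with 1 library left out are not reported here.

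With the replicate number as a block, the counts were 43 at 10 ng/ml, 29 at 30 ng/ml, 1 at 100 ng/ml, 6 between 100 and 10 ng/ml and 2 between 100 and 30 ng/ml. Same-numbered libraries did not deviate together over all tested genes (r from -0.05 to 0.03). Such values show no strong shared effect of the number. They cannot tell whether same-numbered libraries came from the same culture or animal, which the labels do not say. Without both libraries labelled 100 ng/ml, an alternative chosen after seeing the data, 45 were called at 10 ng/ml and 37 at 30 ng/ml.

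The members' share of counts with mitochondrial genes left out of the totals was 3.66% in untreated cells, 4.51% at 10 ng/ml, 4.42% at 30 ng/ml and 4.01% at 100 ng/ml. With 4 ribosomal genes outside the symbol pattern added it was 3.76%, 4.63%, 4.55% and 4.10% from untreated cells to the highest dose. With 1 library left out it ran from 3.45% to 3.60%, 4.20% to 4.48%, 4.21% to 4.32% and 3.77% to 3.95%. For single genes, 442 of the alternative values lost a call, 43 gained it and 3838 kept their side of the threshold.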
